A study of Mus musculus with 22 samples.

Results

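The insulin-like growth factor genes described here are the ligands Igf1 and Igf2, the receptor gene Igf1r, and the binding protein genes Igfbp2 to Igfbp7. They were taken by gene symbol from the annotation of the arrays, which gave 21 probe sets for these 9 genes, out of 22626 non-control probe sets and 12393 genes with a probe set of their own. Igf1 had 3 probe sets, Igf2 2, Igf1r 2, Igfbp2 1, Igfbp3 1, Igfbp4 6, Igfbp5 2, Igfbp6 1 and Igfbp7 3. In each of the 2 deposited tables, 17 of the 21 lay above the lowest 25% of probe sets by mean value and were tested, and every one of the 9 genes had at least 1 tested probe set. The other 4 were 1452014_a_at of Igf1, 1421991_a_at and 1437406_x_at of Igfbp4, and 1437804_at of Igfbp7.

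Total RNA of the whole cerebellum was hybridised to Affymetrix arrays, with 1 array per mouse and 22 arrays in all. The Sca1 and Sca7 arrays are recorded under different array platforms. Sca1 154Q/2Q knock-in mice carry an expanded CAG repeat in 1 copy of the ataxin-1 gene, and Sca7 266Q/5Q knock-in mice carry one in 1 copy of the ataxin-7 gene. The series describes these ages as early symptomatic. The Sca1 knock-in and wild type groups held 3 mice each at 4 weeks and 3 mice each at 9 to 12 weeks. In either older group the mouse numbered 4 was 9 weeks of age, while numbers 5 and 6 had reached 12 weeks. The Sca7 knock-in and wild type groups held 5 mice each at 5 weeks. All mice were female and backcrossed to C57BL/6J, and the labels call the replicates biological without saying whether the groups were littermates. The knock-in alleles are carried in the germ line, so every cell type of the tissue carries them.

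Insulin-like growth factors are secreted peptides that signal through the receptor tyrosine kinase encoded by Igf1r, which activates the PI3K-Akt and MAP kinase pathways. In the cerebellum, Igf1 is known as a survival factor for Purkinje cells, while Igf2 in the adult brain comes largely from the choroid plexus, the meninges and vessels. The binding proteins hold the peptides outside the cell and can either limit or prolong their action, and proteases release the peptides by cutting them.

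Values are the deposited log2 values, so a difference of 1 is a doubling. Each table was tested on its own with limma, and a probe set was called when its p, adjusted by Benjamini-Hochberg over 16969 probe sets, was under 0.05. Unless stated, a difference is the knock-in mean minus the wild type mean, and levels of different probe sets are not set against each other. In whole tissue, fewer cells of a type and less RNA per cell cannot be told apart. Array medians ran from 6.08 to 6.21 (Sca1) and from 6.87 to 6.99 (Sca7). The Sca1 knock-in array of replicate 4 stood apart. Its differences from its group mates had a mean SD over probe sets of 0.431, against 0.218 to 0.372 on the other arrays. The probe set of Atxn1 lay below the lowest 25%, and that of Atxn7 was not called in either line (adjusted p = 0.600 in Sca1 at 9 to 12 weeks and 0.988 in Sca7). A repeat expansion need not alter the level of its gene, so these values do not check the labels. Of 24 listed Purkinje cell markers of the cerebellum, 18 in Sca1 and 19 in Sca7 had a probe set above the lowest 25%. The mean over these was 11.1 to 11.4 in all 6 groups.

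In the Sca1 line at 9 to 12 weeks, 1 member probe set was called, a dim one of Igf1r. On 1452114_s_at, Igfbp5 had the largest difference among the members but missed the threshold with all arrays. Igfbp6 was lower in all knock-in mice without a call. Over all probe sets, 0.0648% were called in this comparison (11 of 16969), and 0.00589% upward. At 4 weeks no member was called and none had an unadjusted p under 0.05, where limma called 0 of all probe sets and 5.52% had an unadjusted p under 0.05. In the Sca7 line no member was called either. There limma called 0 probe sets in all, 3.96% had an unadjusted p under 0.05, and of the members only Igf2 was among these.

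**Figure D1:**
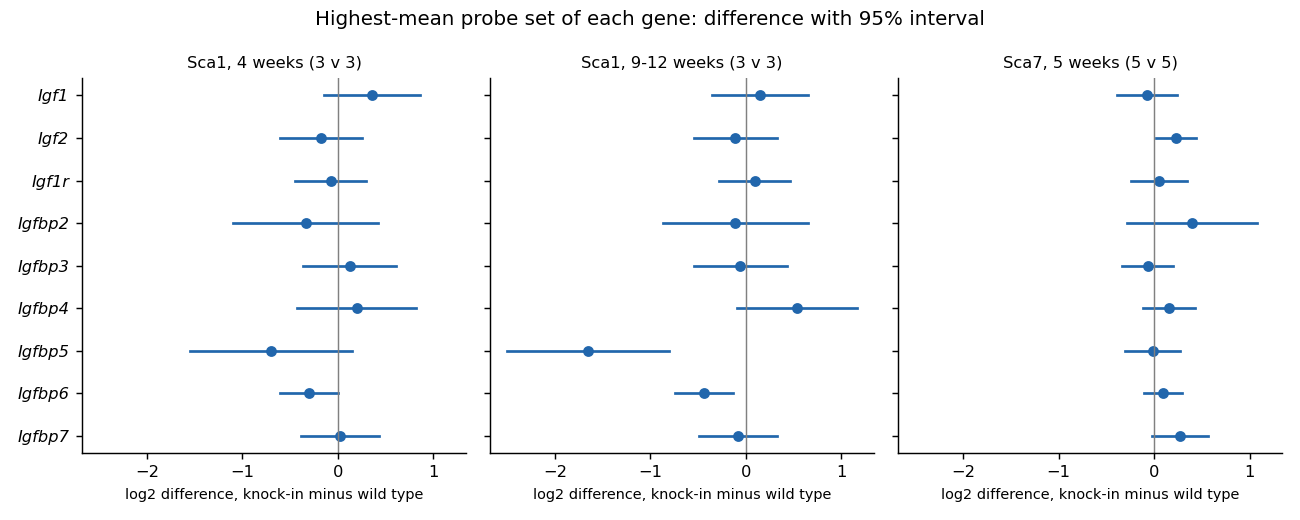
Difference between knock-in and wild type in log2 units (x axis) for the highest-mean probe set of each gene (y axis), in the 3 genotype comparisons at a single age; points are the fitted differences and bars their 95% intervals. Igfbp5 lies at -1.65 and Igfbp6 at -0.44 in the Sca1 line at 9 to 12 weeks, and Igfbp5 at -0.01 in the Sca7 line.

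Igf1, the ligand best known for trophic action in the brain, was read most clearly by probe set 1437401_at. At 4 weeks the Sca1 knock-in mice read 4.96, 5.11 and 5.02, with 4.81, 4.34 and 4.86 in wild type. The knock-in values lay above all wild type values, with a difference of 0.36 (SE 0.231, adjusted p = 0.775). The older knock-in mice read 4.55, 5.19 and 4.95, with 4.23, 4.86 and 5.14 in wild type. These groups overlapped, and the difference of 0.15 had a 95% interval of -0.35 to 0.65. Readings for Sca7 were 6.48, 6.30, 6.79, 6.75 and 6.75 with the knock-in allele, as opposed to 6.96, 6.37, 6.92, 6.41 and 6.78 without it. These overlapped, and the comparison gave -0.08 (95% interval -0.39 to 0.24). The dimmer 1419519_at was at 3.20, 3.25 and 3.34 in the older Sca1 knock-in mice and at 3.19, 3.14 and 2.95 in their controls, without overlap but not called. Over all mice of each table, 1419519_at ran from 2.89 to 3.89 with Sca1 and from 4.02 to 4.95 with Sca7. Below the filter, 1452014_a_at ran from 2.25 to 2.37 and from 2.61 to 2.88.

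Igf2, the other ligand, was high on probe set 1448152_at and nearly flat on 1415931_at, which ran from 3.80 to 3.91 over the Sca1 arrays and from 3.08 to 3.15 over the Sca7 arrays. On 1448152_at the Sca1 knock-in mice had 9.59, 9.97 and 10.15 at 4 weeks against 9.96, 9.96 and 10.32 in wild type. The older groups had 9.40, 10.01 and 9.60 against 9.44, 10.01 and 9.90. The groups overlapped at either age, with differences of -0.18 (SE 0.198) and -0.11 (SE 0.198). In the Sca7 line the values were 10.54, 10.71, 10.38, 10.66 and 10.44 in knock-in and 10.38, 10.30, 10.28, 10.04 and 10.60 in wild type mice. The difference of 0.23 (95% interval 0.02 to 0.43) had the smallest p of the Sca7 member probe sets and was not called (adjusted p = 0.982). The groups overlapped, and wild type replicate 4 held the lowest value. That mouse also had the lowest choroid plexus marker mean of the Sca7 table. In the same comparison 16 of 18 meningeal fibroblast markers were above 0, with a median of 0.20, 5 at an unadjusted p under 0.05 and none called. Over all probe sets, 8696 of 16969 were above 0 and 3.96% had an unadjusted p under 0.05. All 11 choroid plexus markers were above 0 (median 0.68), as were 16 of 20 endothelial and mural markers (median 0.06), none called. The meningeal fibroblast list mean ran from 7.01 to 7.35 in knock-in and from 6.80 to 7.13 in wild type mice. The part of these lists in the Igf2 difference was not tested.

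The receptor gene Igf1r gave different readings on its probe sets. On the dim 1452108_at, the older Sca1 knock-in mice read 4.16, 4.10 and 4.59, with 3.26, 3.34 and 3.55 in wild type, so every knock-in value was above every control. The difference was 0.90 (SE 0.136), a 1.86-fold higher level, with an adjusted p of 0.0405. It was the only probe set of the whole table called upward at that age. At 4 weeks the same probe set had 3.60, 3.59 and 3.57 in knock-in and 3.28, 3.59 and 3.27 in wild type mice, with overlap and a difference of 0.21 (adjusted p = 0.775). Between 4 and 9 to 12 weeks it rose by 0.70 in the knock-in mice (adjusted p = 0.0364), against 0.00 in wild type mice (adjusted p = 0.996). The test of the difference between these, 0.69 (SE 0.192), was not called (adjusted p = 0.999). In that test limma called 0 of all probe sets and 2.34% had an unadjusted p under 0.05, among them this one of the members.

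The brighter Igf1r probe set, 1426565_at, showed no such pattern. The older Sca1 knock-in mice read 8.70, 9.31 and 8.55, with 8.68, 8.93 and 8.68 in wild type, which overlapped. The difference was 0.09 (95% interval -0.28 to 0.46), and that interval ends below the 0.90 measured on the dim probe set. At 4 weeks its difference was -0.07 (SE 0.170). In Sca7 mice the dim probe set read 3.23, 3.69, 3.69, 3.84 and 3.59 in knock-in and 3.65, 3.81, 3.65, 3.66 and 3.65 in wild type, with overlap. The bright one ran from 7.52 to 8.13 in knock-in and from 7.30 to 7.90 in wild type mice, a difference of 0.05 (95% interval -0.24 to 0.35). The 2 probe sets thus disagreed on Igf1r in the older Sca1 mice, and why was not tested. Leaving out any one of 10 of the 12 Sca1 mice ended the call on the dim probe set. The adjusted p over the 12 omissions ran from 0.0169 to 0.215, the highest without wild type replicate 5, while the difference stayed between 0.75 and 0.99. Of these single omissions, those of older knock-in replicate 4 and of 4-week wild type replicate 2 kept it.

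**Figure D2:**
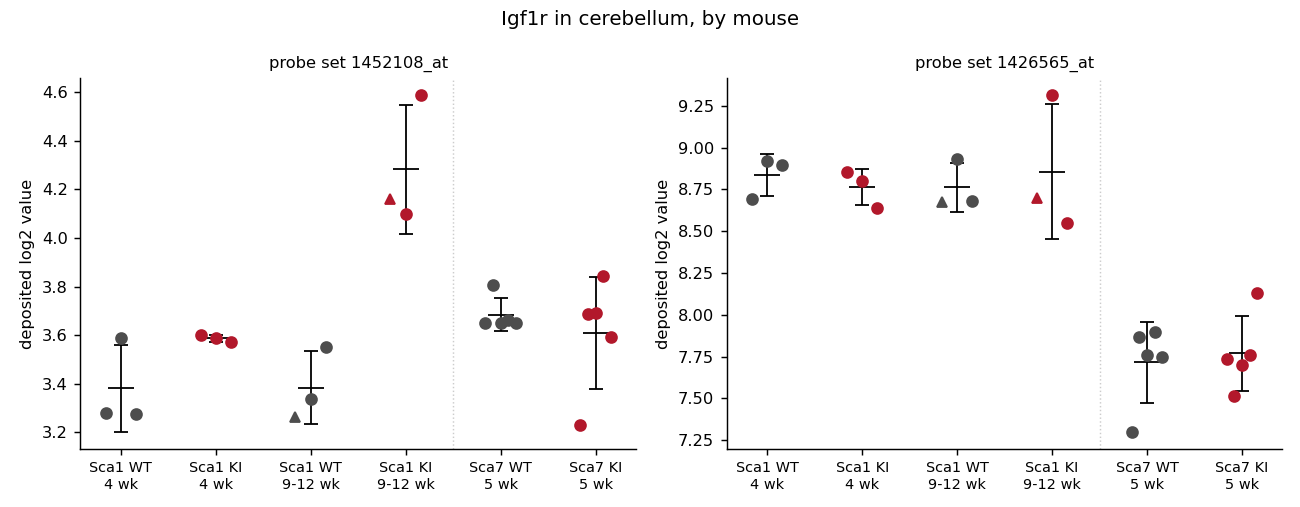
Deposited log2 values of the Igf1r probe sets (y axis) in each mouse of the 6 groups (x axis; WT, wild type; KI, knock-in; triangles, the 9-week mice of the older Sca1 groups). Horizontal bars are group means and error bars SD; on 1452108_at the older Sca1 knock-in mice sit between 4.10 and 4.59, above their controls at 3.26 to 3.55, and on 1426565_at the same groups overlap.

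Over the 22 arrays, with group means removed, the genes whose highest-mean probe set varied most like that of Igf1r were Oip5os1, Kcna6 and Sptb. Their Pearson r was 0.87, 0.78 and 0.71 over the 12 Sca1 arrays and 0.80, 0.75 and 0.84 over the 10 Sca7 arrays. They were the highest of 8997 genes by the smaller of the 2 values, so they are a description. The probe set compared is the bright 1426565_at and not the called one.

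Igfbp2, a binding protein that prefers Igf2, has 1 probe set, 1454159_a_at. At 4 weeks the Sca1 knock-in mice read 8.32, 9.63 and 9.82, with 9.49, 9.53 and 9.76 in wild type. Older mice had 9.39, 10.37 and 9.49 against 9.57, 10.02 and 9.99. The groups overlapped at either age, and the differences were -0.34 (SE 0.348) and -0.11 (SE 0.348). Sca7 values were 10.38, 10.39, 10.29, 10.22 and 9.91 in knock-in and 10.10, 10.48, 9.95, 8.46 and 10.19 in wild type mice. That difference was 0.40 (SE 0.309, adjusted p = 0.982). Of the 22 mice, 2 had low values, Sca1 knock-in replicate 1 at 4 weeks and Sca7 wild type replicate 4. Without the first, the Sca1 difference at 4 weeks was 0.13 in place of -0.34, and without the second, the Sca7 difference was 0.06 in place of 0.40.

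The same 2 mice had the lowest choroid plexus marker values of their tables. The choroid plexus is the secretory epithelium of the ventricles, and a cerebellar dissection can carry a variable amount of it. The mean log2 value over the 11 of 16 listed markers that could be measured was 5.09 in the Sca1 mouse, against 5.92 to 7.30 in the other 11 Sca1 mice. It was 5.29 in the Sca7 mouse, against 7.57 to 8.12 in the other 9 Sca7 mice. All 11 markers were below 0 in the Sca1 comparison at 4 weeks and all 11 above 0 in the Sca7 comparison, with medians of -0.43 and 0.68, and none was called in either. With group means removed, Igfbp2 and the marker mean had Pearson r = 0.95 and Spearman rho = 0.88 over the Sca1 arrays (exact permutation within groups, p = 0.0015 for either; n = 12). Without the 2 arrays farthest from the median of the marker mean, r was 0.91. Over the Sca7 arrays r was 0.97 and rho 0.82 (exact permutation, p = 0.0065 and 0.031; n = 10), and r was 0.75 without the 2 farthest. Of 144 such relations computed, for 9 genes, 8 marker lists and 2 tables, none passed after Benjamini-Hochberg adjustment (adjusted p = 0.155 and 0.182 for these r, 0.148 and 0.259 for these rho). Chosen after the values were seen, the genes most like Igfbp2 across both tables were Kl, Sostdc1 and Ecrg4, with Sca1 r of 0.91, 0.90 and 0.90 and Sca7 r of 0.97, 0.97 and 0.98. Kl and Sostdc1 are among the listed choroid plexus markers. The part of the dissection in the Igfbp2 values was not tested.

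**Figure D3:**
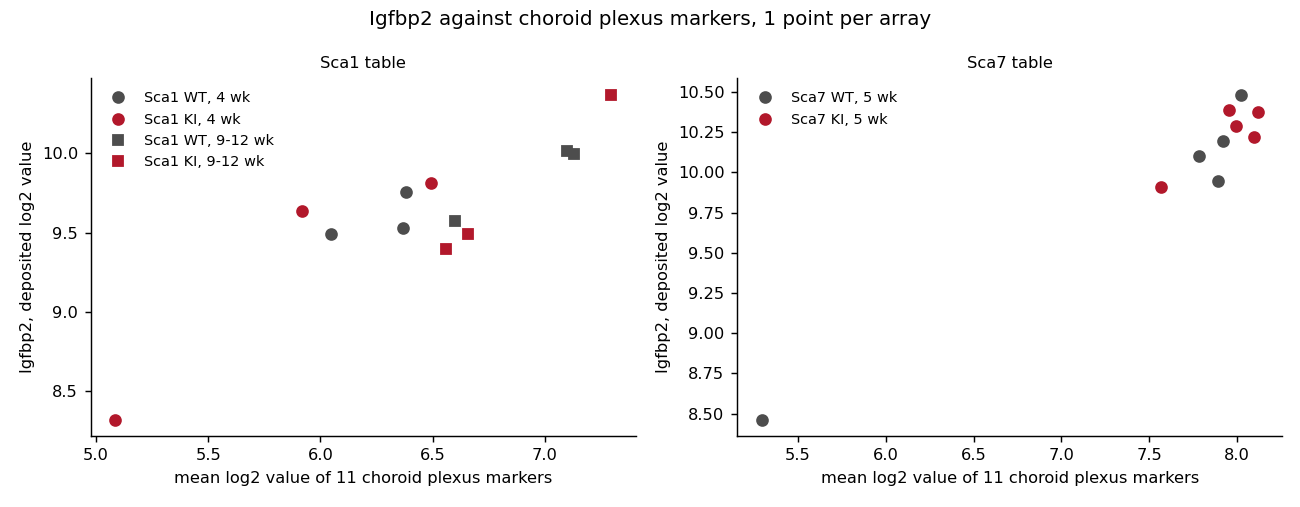
Igfbp2 (y axis, deposited log2 value) against the mean log2 value of 11 choroid plexus markers (x axis), 1 point per array, in the Sca1 table (left; circles, 4 weeks; squares, 9 to 12 weeks) and the Sca7 table (right). The arrays at 5.09 and 5.29 on the x axis are also the lowest for Igfbp2, at 8.32 and 8.46.

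Igf2 was compared with the same markers, since that epithelium is known to make it. Its r with the choroid plexus mean was 0.87 and its rho 0.92 over the Sca1 arrays (exact permutation within groups, p = 0.0039 and 0.0031, adjusted p = 0.155 and 0.148; n = 12), with r = 0.89 without the 2 farthest arrays. In the Sca7 table r was 0.66 and rho 0.44 (exact permutation, p = 0.130 and 0.183, adjusted p = 0.428 and 0.580; n = 10). That r was 0.14 without the 2 farthest arrays, so it rested on them. With the meningeal fibroblast markers, Igf2 had r = 0.69 and rho = 0.73 over the Sca1 arrays (exact permutation, adjusted p = 0.281 and 0.259; n = 12) and 0.77 for both over the Sca7 arrays (exact permutation, adjusted p = 0.235 and 0.259; n = 10). Without the 2 farthest arrays those r were 0.60 and 0.47.

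Igfbp3, the main carrier of the peptides in blood, did not separate the groups. Its probe set 1423062_at had 6.76, 6.42 and 6.92 in Sca1 knock-in mice at 4 weeks against 6.25, 6.46 and 7.01 in wild type. Older values were 6.66, 6.08 and 6.47 against 6.44, 6.23 and 6.70. The Sca7 knock-in mice ran from 6.90 to 7.40 and the wild type mice from 6.94 to 7.37. The groups overlapped in all 3 comparisons, with differences of 0.12 (SE 0.224), -0.06 (SE 0.224) and -0.07 (SE 0.120).

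Igfbp4, a binding protein known mainly as an inhibitor that the protease Pappa cuts, was read by 4 tested probe sets. On 1437405_a_at the older Sca1 knock-in mice read 7.78, 9.03 and 8.69, with 7.56, 8.17 and 8.16 in wild type. The groups overlapped through the 9-week knock-in mouse, and the difference was 0.53 (SE 0.288, adjusted p = 0.631). It was 0.90 without that mouse (adjusted p = 0.0841) and 0.69 without both 9-week mice (adjusted p = 0.151), not called in either. On 1421992_a_at the same mice had 6.96, 7.32 and 7.27 against 6.74, 6.91 and 6.95. Every knock-in value lay above every control, by 0.31 on average (SE 0.123, adjusted p = 0.496). At 4 weeks the difference was 0.20 (SE 0.288) on 1437405_a_at, with overlap.

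The remaining tested Igfbp4 probe sets were not called in any genotype comparison. On 1423756_s_at the older Sca1 knock-in mice read 3.60, 6.50 and 6.00, with 4.29, 5.65 and 5.73 in wild type. As on 1437405_a_at, the groups overlapped through the 9-week knock-in mouse, and the difference was 0.14 (SE 0.724). Sca1 knock-in replicate 1 at 4 weeks had 3.55 where its group mates had 5.51 and 5.62. The 4-week difference on 1423756_s_at was -0.51 (SE 0.724, adjusted p = 0.869), with overlap. On 1423757_x_at the values over the Sca1 arrays ran from 3.99 to 4.86, and the older difference was -0.10 (SE 0.192). In Sca7 mice 1437405_a_at had 7.79, 7.92, 7.59, 7.72 and 7.55 in knock-in and 7.93, 7.53, 7.60, 7.19 and 7.55 in wild type, a difference of 0.15 (95% interval -0.12 to 0.42).

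Igfbp5, a binding protein that also attaches to the extracellular matrix, had the largest differences of the members in the Sca1 line. On 1452114_s_at the knock-in mice had 9.83, 9.86 and 10.18 at 4 weeks against 10.62, 10.62 and 10.73 in wild type. The older knock-in mice had 7.24, 9.09 and 9.12 against 9.80, 10.44 and 10.17. The groups did not overlap at either age, and the lowest value of all was that of the 9-week knock-in mouse. The difference was -0.70 (SE 0.387, adjusted p = 0.775) at 4 weeks. At 9 to 12 weeks it was -1.65 (SE 0.387, 95% interval -2.50 to -0.81), a 3.14-fold lower level, with an adjusted p of 0.197. Averaged over the ages it was -1.18 (SE 0.274, adjusted p = 0.140), a 2.26-fold lower level. Each SE and p uses the spread shared by all Sca1 groups, not that of 1 age. The SD was 0.196 in knock-in and 0.062 in wild type mice at 4 weeks, and 1.07 and 0.321 in the older mice.

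Whether Igfbp5 passed the threshold depended on the array of knock-in replicate 4, the one that stood apart. Without it the difference at 9 to 12 weeks was smaller, -1.03, and was called (adjusted p = 0.0171), as was the mean over the ages, -0.87 (adjusted p = 0.0082). Without both 9-week mice the values were -1.20 (adjusted p = 0.0175) and -0.95 (adjusted p = 0.0039). Omitting any other single Sca1 mouse left the difference at 9 to 12 weeks between -1.50 and -1.97, with no call. The table as a whole shifted with that array too. It held 11 called probe sets with it, 185 without it and 112 without both 9-week mice.

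**Figure D4:**
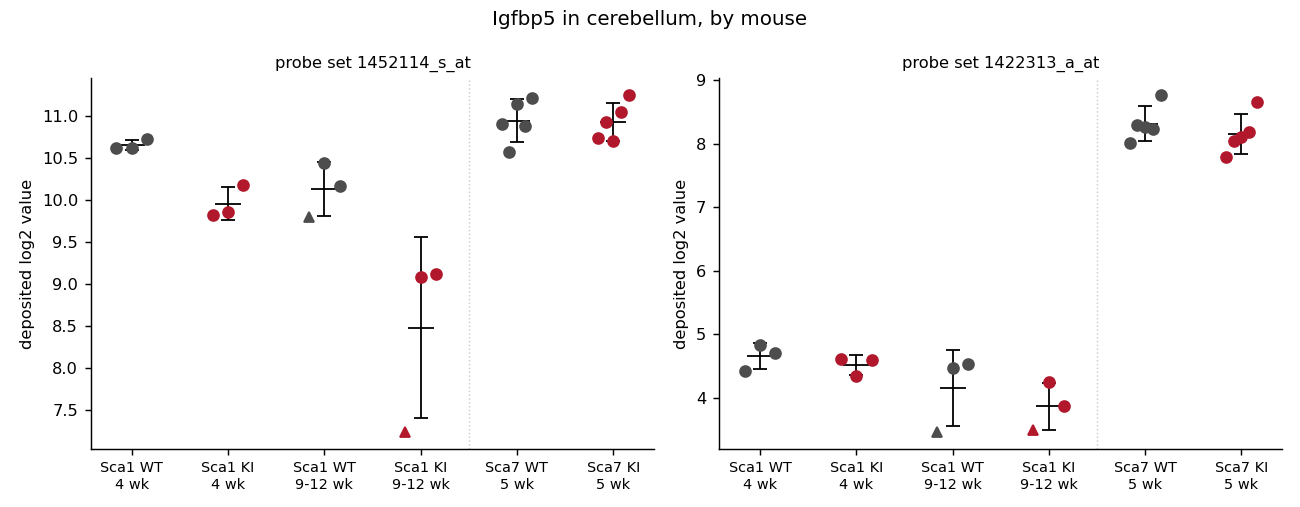
Deposited log2 values of the Igfbp5 probe sets (y axis) in each mouse of the 6 groups (x axis; WT, wild type; KI, knock-in; triangles, the 9-week mice of the older Sca1 groups). Horizontal bars are group means and error bars SD; on 1452114_s_at the older Sca1 knock-in mice sit at 7.24, 9.09 and 9.12 below their controls at 9.80 to 10.44, and the Sca7 groups overlap.

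The second Igfbp5 probe set, 1422313_a_at, was far dimmer in the Sca1 table, where it ran from 3.46 to 4.82, and brighter in the Sca7 table, where it ran from 7.78 to 8.76. The older Sca1 knock-in mice read 3.50, 4.24 and 3.86, with 3.46, 4.47 and 4.53 in wild type, which overlapped. The difference was -0.28 (95% interval -0.86 to 0.29), and that interval does not reach the -1.65 measured on 1452114_s_at. At 4 weeks the difference on 1422313_a_at was -0.14 (SE 0.263). The Igfbp5 probe sets thus differed in the older Sca1 mice, and why was not tested. In the Sca7 line the Igfbp5 groups overlapped on both probe sets. Probe set 1452114_s_at read 10.73, 10.93, 10.70, 11.05 and 11.25 with the knock-in allele, as opposed to 10.90, 10.57, 11.15, 10.88 and 11.21 without it. The difference was -0.01, with a 95% interval of -0.30 to 0.28 (adjusted p = 0.999). The lines are in separate tables, recorded under different array platforms, and differ in age, so the difference between them was not tested.

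Beside Igfbp5 in the older Sca1 mice, all 8 cell type marker lists had most of their measured genes below 0. Over all tested probe sets, 8469 of 16969 were below 0, so a list near that share shows no shift. The list means did not overlap between the groups for 5 of the 8 lists. Of 18 measured Purkinje cell markers out of 24 listed, 16 were below 0 and 1 was called lower, Rgs8, a regulator of G protein signalling (-0.50, SE 0.0755, adjusted p = 0.0405), with a median difference of -0.20 against 0.00 over all tested probe sets. The mean over the Purkinje list ran from 11.07 to 11.20 in these knock-in mice and from 11.30 to 11.49 in their controls. Of 10 measured oligodendrocyte markers out of 14 listed, 9 were below 0, with a median of -0.26 and none called, and the list mean ran from 10.40 to 10.50 against 10.59 to 10.80. Of 15 measured meningeal fibroblast markers out of 18 listed, 13 were below 0, with a median of -0.28 and none called. Their list mean ran from 5.88 to 5.97 in knock-in and from 6.14 to 6.28 in wild type mice. Of 16 Bergmann glia and astrocyte markers, 12 were below 0 (list mean 10.79 to 10.85 against 10.86 to 10.96), as were 8 of 13 measured microglia markers out of 15 listed (5.59 to 5.68 against 5.73 to 5.82). For endothelial and mural cells it was 11 of 17, for granule cells 10 of 17 and for the choroid plexus 7 of 11, and the list means of these overlapped. Their medians were -0.03, -0.01 and -0.07. At 4 weeks 15 of the 18 Purkinje markers were below 0, with a median of -0.10 and none called. Their list mean ran from 11.14 to 11.27 in knock-in and from 11.33 to 11.37 in wild type mice. The means of the other cell type lists overlapped at that age. Averaged over the ages, 17 of 18 Purkinje markers were below 0 and 3 were called lower, where 0.236% of all probe sets were called.

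Within groups, Igfbp5 on 1452114_s_at and the Purkinje list mean had r = 0.56 and rho = 0.60 over the Sca1 arrays (exact permutation within groups, adjusted p = 0.403 and 0.382; n = 12). Over the Sca7 arrays r was 0.87 and rho 0.88 (exact permutation, p = 0.0043 and 0.0027, adjusted p = 0.155 and 0.148; n = 10). Without the 2 farthest arrays r was 0.54 and 0.79. Over the Sca1 arrays the granule cell list had a higher r with Igfbp5, 0.62 (exact permutation, adjusted p = 0.235; n = 12), and 0.77 without the 2 farthest. The choroid plexus list had r = 0.46 and the highest rho of the lists, 0.69 (n = 12, exact permutation, adjusted p = 0.442 and 0.307). Over the Sca7 arrays its r and rho were -0.01 and -0.12. Over the Sca7 arrays the granule r was 0.63 (exact permutation, adjusted p = 0.403; n = 10). The oligodendrocyte list had r = 0.67 over the Sca7 arrays (exact permutation, adjusted p = 0.32; n = 10), 0.80 without the 2 farthest, and r = 0.15 over the Sca1 arrays. Igfbp6 and the meningeal fibroblast mean had r = 0.84 and rho = 0.77 over the Sca7 arrays (exact permutation, adjusted p = 0.155 and 0.259; n = 10), with r = 0.56 without the 2 farthest, and r = -0.06 and rho = -0.02 over the Sca1 arrays (exact permutation, adjusted p = 0.966 and 0.982; n = 12). None of these passed after adjustment. What the mix of cell types contributes to the genotype differences of Igfbp5 and Igfbp6 was not tested.

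Igfbp6, the binding protein with the strongest preference for Igf2, had a lower mean in the Sca1 knock-in mice at either age. Probe set 1417933_at had 6.88, 6.60 and 6.60 in knock-in mice at 4 weeks against 7.08, 6.84 and 7.05 in wild type. In the older mice they were 6.86, 6.72 and 7.08 against 7.33, 7.45 and 7.20. The groups overlapped narrowly at 4 weeks and not at 9 to 12 weeks. The differences were -0.30 (SE 0.139, adjusted p = 0.775) and -0.44 (SE 0.139, adjusted p = 0.360), and -0.37 averaged over the ages (SE 0.0981, adjusted p = 0.185). None was called, also without knock-in replicate 4, where the difference at 9 to 12 weeks was -0.43 (adjusted p = 0.221). For Sca7 the values were 8.37, 8.48, 8.24, 8.34 and 8.30 in knock-in and 8.19, 8.09, 8.10, 8.34 and 8.55 in wild type, which overlapped, with a difference of 0.09 (SE 0.0901).

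Igfbp7, which binds the peptides weakly and is abundant in vessel walls, had a lower mean in the older mice of both genotypes of the Sca1 line. Probe set 1423584_at had 9.07, 9.02 and 9.59 in wild type mice at 4 weeks and 8.48, 8.89 and 8.73 at 9 to 12 weeks. The knock-in mice had 9.15, 9.26 and 9.35 at 4 weeks and 8.24, 8.87 and 8.74 at 9 to 12 weeks. Within either genotype the older values lay below all younger ones, by 0.53 and 0.64 on average, but neither age difference was called (adjusted p = 0.281 and 0.134). With age, 14 of 17 endothelial and mural markers were below 0 in wild type and 16 of 17 in knock-in mice, with medians of -0.13 and -0.16 and none called. For granule cell markers it was 15 of 17 and 11 of 17, with medians of -0.19 and -0.08 and none called. Over all tested probe sets it was 6779 and 8350 of 16969. All 10 oligodendrocyte markers were below 0 in either genotype, with 4 and 8 called lower, and all 11 choroid plexus markers were above 0, with 1 (Kcne2, a potassium channel subunit) called higher in knock-in mice. Their part in the Igfbp7 values was not tested. Between genotypes the differences were 0.03 and -0.08 (SE 0.187), with overlap. Sca7 knock-in mice ran from 8.63 to 9.14 and the wild type mice from 8.26 to 8.94, and the difference was 0.27 (SE 0.134, adjusted p = 0.982). The dimmer 1423585_at ran from 3.50 to 3.72 over the Sca1 arrays and from 3.17 to 3.40 over the Sca7 arrays. Below the filter, 1437804_at ran from 0.31 to 0.42 and from 1.13 to 1.18.

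**Figure D5:**
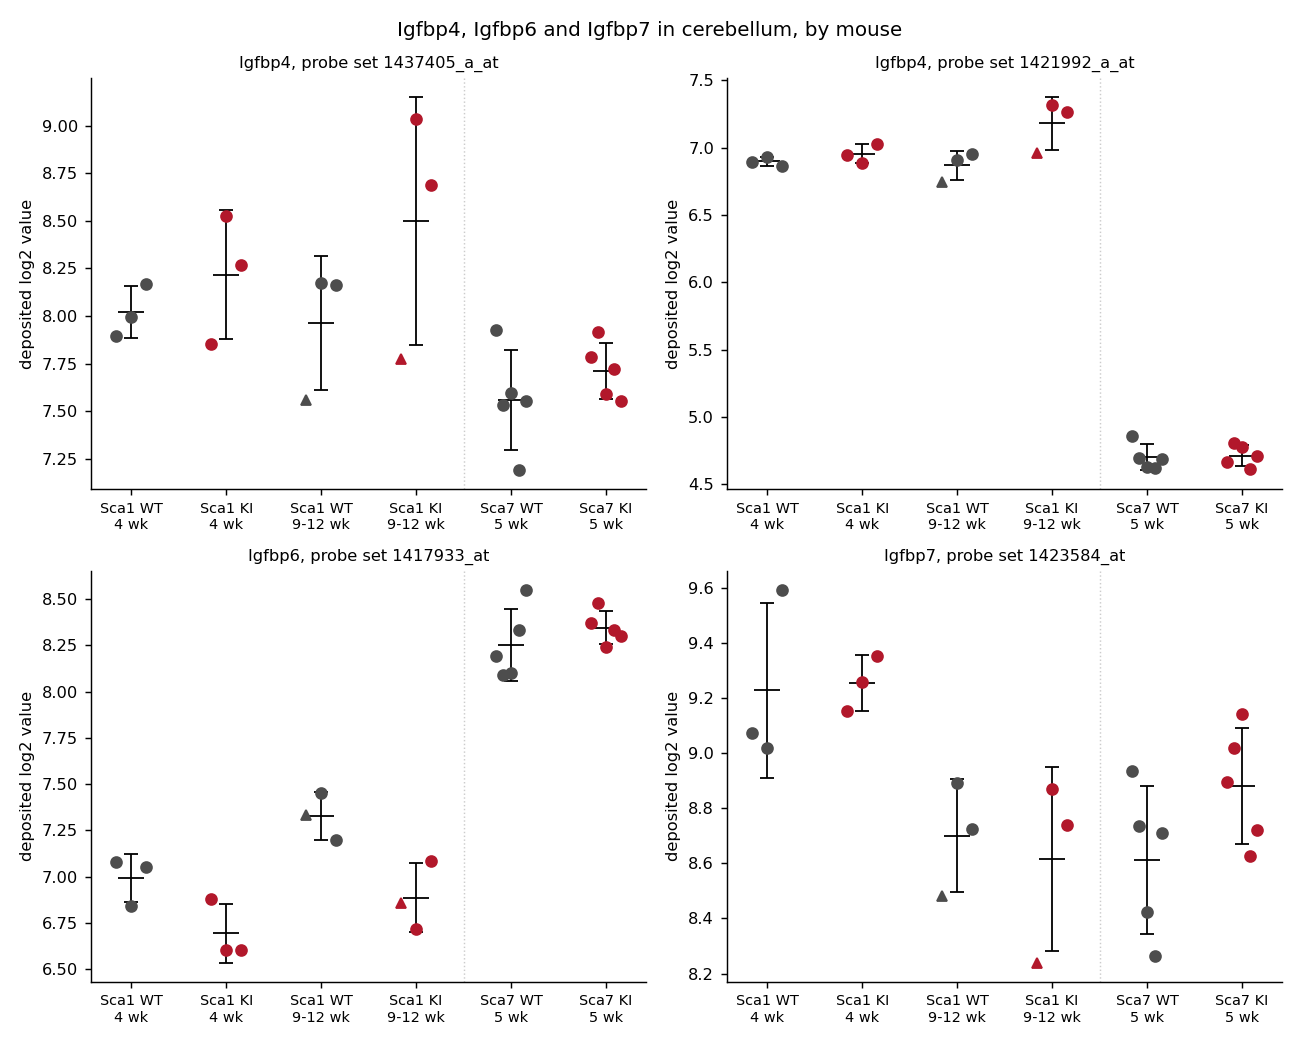
Deposited log2 values (y axis) of 2 Igfbp4 probe sets and of the Igfbp6 and Igfbp7 probe sets with the highest mean, in each mouse of the 6 groups (x axis; WT, wild type; KI, knock-in; triangles, the 9-week mice of the older Sca1 groups). Horizontal bars are group means and error bars SD; the older Sca1 knock-in mice are above their controls on Igfbp4 1421992_a_at (6.96 to 7.32 against 6.74 to 6.95) and below them on Igfbp6 (6.72 to 7.08 against 7.20 to 7.45).

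With age in the Sca1 table, no member was called in wild type mice, where 0.413% of all probe sets were called, and 1 was called in knock-in mice, where 0.978% were. That one was the dim Igf1r probe set. Igfbp6 was 0.34 higher in older than in younger wild type mice (SE 0.139, adjusted p = 0.362). Igfbp5 on 1452114_s_at was 1.48 lower in older than in younger knock-in mice, without a call (adjusted p = 0.0977). Without knock-in replicate 4 that difference was -0.86 and was called (adjusted p = 0.0332). These age comparisons share their groups with the genotype comparisons above.

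Taking the 17 tested member probe sets as a list, 9 were above 0 and 8 below in the Sca1 line at 9 to 12 weeks, with a median of 0.05 against 0.00 over all tested probe sets. The groups did not overlap on 5 of the 17, against 12.1% of all probe sets. At 4 weeks 9 were above 0 and 8 below, and 2 of 17 did not overlap, against 12.8% of all. In the Sca7 line 11 were above 0 and 6 below, with a median of 0.04 against 0.00, and none was free of overlap, against 0.578% of all. Averaged over the ages, the Sca1 line had 1 member called of 17, against 0.236% of all probe sets, again Igf1r on 1452108_at (0.55, SE 0.0961, adjusted p = 0.0468). That call held in 1 of 12 single omissions, without knock-in replicate 4, and was lost with no filter (adjusted p = 0.0550), with quantile normalization (adjusted p = 0.118) and with the replicate block (adjusted p = 0.0627). Over the omissions the difference stayed between 0.48 and 0.60, with adjusted p from 0.0213 to 0.154.

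The pathway genes around the members were described from 3 lists, each gene by its highest-mean probe set. The lists hold the other extracellular proteins and receptors (12 of 20 measured with Sca1 and 11 with Sca7), the signalling proteins downstream of the receptor (37 and 38 of 53), and the regulators of Igf2 mRNA or transcription (4 and 3 of 6). None was called by limma in any genotype comparison. At an unadjusted p under 0.05 in the Sca1 line at 4 weeks there were 1 higher extracellular gene (Stc1), 1 higher downstream gene (Grb10, an adaptor that dampens receptor signalling) and 3 lower downstream genes (Inppl1, Foxo3 and Bad). At 9 to 12 weeks there was 1 lower downstream gene, and in the Sca7 line 1 higher downstream gene, Nedd4 in either case. Over all probe sets the share at that level was 5.52% at 4 weeks, 8.98% at 9 to 12 weeks and 3.96% in the Sca7 line. The downstream list had 24 of 37 genes below 0 at either Sca1 age, with medians of -0.06 and -0.08, against 0.01 and 0.00 over all probe sets, and 16 of 38 below 0 in the Sca7 line.

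The pathway genes with the smallest p at 4 weeks in the Sca1 line were Inppl1, Foxo3 and Stc1. Inppl1, a lipid phosphatase that opposes PI3K signalling, was at -0.33 (SE 0.108) and Foxo3, a transcription factor that Akt inhibits, at -0.29 (SE 0.0943). Stc1, an inhibitor of the protease Pappa, was at 0.24 (SE 0.0918), and each of these had an adjusted p of 0.775. At 9 to 12 weeks they were Nedd4, Braf and Inppl1. Nedd4, a ubiquitin ligase, was at -0.29 (SE 0.117, adjusted p = 0.502), Braf, a kinase of the MAP kinase pathway, at -0.58 (SE 0.281, adjusted p = 0.586), and Inppl1 at -0.22 (SE 0.108, adjusted p = 0.591). Averaged over the ages, Inppl1 was at -0.28 (adjusted p = 0.199), Foxo3 at -0.22 (adjusted p = 0.238) and Stc1 at 0.17 (adjusted p = 0.331). For the difference between the ages in the genotype difference they were Nedd4 at -0.35, Pik3ca at 0.29 and Bad at 0.28 (each adjusted p = 0.999). For Sca7 they were Nedd4 at 0.09 (SE 0.0368), Foxo3 at -0.09 (SE 0.0502) and Eif4ebp2, a brake on translation, at 0.14 (SE 0.0926), each with an adjusted p of 0.982.

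By the array annotation and the mouse gene table used here (GRCm38.p6), Igfbp2 and Igfbp5 are neighbours on chromosome 1 with 0 annotated genes between them, and so are Igfbp3 and Igfbp1 on chromosome 11. Of the neighbouring pair on chromosome 1, Igfbp5 had a difference of -1.65 and Igfbp2 of -0.11 in the older Sca1 mice. Igf2 and Igf1r lie on chromosome 7, Igf1 on 10, Igfbp4 on 11, Igfbp6 on 15 and Igfbp7 on 5. None of the 9 is on chromosome 13 or 14, which hold Atxn1 and Atxn7.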

How the data were processed

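The authors deposited 1 value table per mouse line, with 12 Sca1 and 10 Sca7 arrays and 22690 probe sets each. The tables are recorded under different array platforms, so line and platform cannot be told apart. Per the labels, biotin-labelled RNA was hybridised, and per the submitters' processing notes GCOS 1.1 was used. The deposited values are on a log2 scale, judged from their range; the background correction, normalization and summary method are not given in the sources used here. Groups came from the labels. Of the non-control probe sets, 20380 have 1 gene symbol in the array annotation, 691 several and 1555 none. Probe sets in the lowest 25% by mean (under 2.80 in Sca1 and 2.71 in Sca7) were left out. Each table was fitted in R 4.3.3 with limma 3.58.1 (lmFit, eBayes with a trend, two-sided, Benjamini-Hochberg over 16969 probe sets). Each probe set had 1 mean per group and its own spread, shared by all groups of the table. The fit was tested on simulated data. The number of arrays limits the precision.

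All member probe sets were named; single differences were followed through the alternatives for the highest-mean probe set of each gene in the genotype comparisons at 1 age and for those with an unadjusted p under 0.05, a rule set after values were seen. Of the pathway lists, genes called in a genotype comparison and the 3 with the smallest p in each were named. For likeness, the rule took the 3 genes most like each called member. The members and lists were chosen with earlier results of these data known. Alternatives were no filter, 1 probe set per gene, quantile normalization, array weights, a replicate block, leaving out each mouse and leaving out both 9-week mice.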

Additional observations from a re-analysis of the deposited data

Results flagged for a closer look

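Within the Sca7 groups of 5 mice, 8 of 42 sets of values had 1 mouse far from the others by Dixon's criterion (the gap to the next mouse over the range). For normally distributed values the criterion flags about 1 in 20. The share flagged over all probe sets was not counted, and the sets come from the same mice, so the count is a description. Igfbp2 was 8.46 in wild type replicate 4, against 9.95 in the next mouse. This is the mouse with the low choroid plexus markers. Igf1r was 7.30 on 1426565_at in wild type replicate 1 (next 7.75) and 3.81 on 1452108_at in wild type replicate 2 (next 3.66). Igfbp4 was 5.45 on 1423757_x_at in knock-in replicate 1, where the other knock-in mice had 4.42 to 4.50. Igf2 on 1415931_at was 3.08 in wild type replicate 5 (next 3.11), on a probe set that hardly varied. The other flags were on probe sets below the filter: Igf1 1452014_a_at at 2.88 in wild type replicate 2 and 2.83 in knock-in replicate 5, and Igfbp4 1421991_a_at at 1.71 in wild type replicate 2. Wild type replicate 2 thus held 3 of the 8. The causes were not tested.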

How the results depend on the processing

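No member was called in the Sca1 line at 4 weeks, in the Sca1 wild type age comparison, in the difference between the ages, or in the Sca7 line under any alternative run. At 9 to 12 weeks in the Sca1 line, 1 member probe set was called; the count was 2 with array weights or without both 9-week mice, and 0 with 1 probe set per gene, where the dim Igf1r probe set is not in the fit, or with quantile normalization (adjusted p = 0.0727 for Igf1r). It ran from 0 to 2 on leaving out each mouse. The mean of the ages went from 1 to 2 with array weights or without both 9-week mice, to 0 with no filter, with 1 probe set per gene, with quantile normalization and with the replicate block, and ran from 0 to 2 on leaving out each mouse. The knock-in age comparison went from 1 to 0 with 1 probe set per gene, to 2 with array weights and without both 9-week mice, and from 0 to 2 on leaving out each mouse. The second probe set was Igfbp5 1452114_s_at, called with array weights at -1.25 (adjusted p = 0.0356) at 9 to 12 weeks. Over all probe sets, calls at 9 to 12 weeks numbered 11, against 414 with array weights, 112 without both 9-week mice and 0 to 185 on leaving out each mouse.

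Of 39 single differences followed, 27 never changed sign. The other 12 had differences from -0.34 (Igfbp2 at 4 weeks) to 0.15 (Igf1 at 9 to 12 weeks), none called. Igfbp3 at 9 to 12 weeks was 0.02 with quantile normalization and 0.01 with array weights, Igf1r 1426565_at -0.09, Igfbp7 at 4 weeks -0.04 and Igfbp5 in Sca7 0.03 with array weights. On leaving out each mouse, they ran as follows. At 4 weeks Igfbp2 ran from -0.62 to 0.13, Igfbp3 from -0.04 to 0.34 and Igfbp7 from -0.08 to 0.21. At 9 to 12 weeks Igf1 ran from -0.11 to 0.35, Igf2 from -0.28 to 0.02, Igf1r 1426565_at from -0.14 to 0.24, Igfbp2 from -0.42 to 0.07, Igfbp3 from -0.19 to 0.10 and Igfbp7 from -0.21 to 0.10. In Sca7, Igf1 ran from -0.16 to 0.00, Igf1r 1426565_at from -0.05 to 0.12 and Igfbp5 from -0.11 to 0.05.

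The replicate numbers were not taken to pair the mice, since the labels tie them to no litter or batch. Deviations of same-numbered Sca1 mice correlated at 0.44 for number 4, the 9-week mice, at 0.52 for number 5 and at -0.21 to 0.02 for the other 4 numbers, and in Sca7 at -0.13 to 0.13. With the replicate block, 1 member was called at 9 to 12 weeks and 0 over the mean of the ages. The within-genotype age comparisons could not be fitted with it. Probe sets below the filter carry little signal, and dim probe sets such as Igf1r 1452108_at limit what can be read from them.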

Other observations

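Among the older Sca1 mice, the 9-week mouse had the lowest value of its group in knock-in and in wild type alike for 6 of the 9 genes: Igf1, Igf2, Igfbp2, Igfbp4, Igfbp5 and Igfbp7, each on its highest-mean probe set. Over all tested probe sets the 9-week mouse was lowest in both groups for 15.5%. The count was made after the values were seen. On Igfbp5 1422313_a_at the 9-week mice had 3.46 in wild type and 3.50 in knock-in, below 3.86 to 4.53 in the 12-week mice. The choroid plexus marker mean was lowest in the same mice, at 6.56 in knock-in and 6.60 in wild type, against 6.66 to 7.30 in the 12-week mice. They were also the lowest of their groups for the Purkinje mean, at 11.07 in knock-in and 11.30 in wild type. The same held for the granule cell mean, at 11.08 and 11.11. For the other cell type lists the 9-week mouse was not lowest in both groups. With 1 mouse of that age per genotype, age and mouse cannot be told apart.

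With group means removed, the 3 of 8997 genes that varied most like Igfbp7 were Col4a1, a basement membrane collagen gene, Rfng and Sod3. Their r was 0.91, 0.81 and 0.90 over the 12 Sca1 arrays and 0.92, 0.80 and 0.78 over the 10 Sca7 arrays. These genes were picked after the values were seen and are a description. With the mean of the endothelial and mural markers, Igfbp7 had r = 0.55 and rho = 0.59 over the Sca1 arrays (exact permutation within groups, adjusted p = 0.389 and 0.307; n = 12). Over the Sca7 arrays r was 0.37 and rho 0.20 (exact permutation, adjusted p = 0.620 and 0.827; n = 10). This list was not the closest to Igfbp7. The granule cell list had r = 0.72 and rho = 0.71 over the Sca1 arrays (exact permutation, adjusted p = 0.281 and 0.259; n = 12). Over the Sca7 arrays the granule r was -0.57 and rho -0.49 (exact permutation, adjusted p = 0.428 and 0.596; n = 10).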
